A study of Homo sapiens with 6 samples.

Results

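Transcript levels of 10 genes of the tumour necrosis factor (TNF) system were followed in U937 cells. The genes comprise 5 ligands (TNF, TNFSF10, TNFSF13, TNFSF13B and LTA), 2 receptors (TNFRSF1A and TNFRSF1B) and 3 intracellular mediators (BIRC3, TRAF1 and TNFAIP2). They were selected by symbol, not by a measured value of their own, though with earlier results of these data known. They make up 10 of the 60612 gene identifiers in the deposited table. A filter on low counts left 17224 genes for testing, and 9 of the 10 passed it. LTA did not.

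U937 is an established human myeloid cell line, which the labels describe as acute myeloid leukemia with a WT genotype. After growth in RPMI-1640 with fetal bovine serum, all cells were kept in serum-free medium, where a compound called only B2 (1 µM) or its vehicle DMSO was present for 36 h. Each of the 2 groups has 3 RNA sequencing libraries, numbered 1 to 3 in both. The series title names S100A9 as the target of interest, but whether replicates were separate cultures is not stated. The p-values therefore reflect variation among these libraries alone, and that variation may be technical.

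TNF superfamily ligands are mostly membrane-bound or shed trimers that cluster receptors on a target cell. TNFRSF1A carries a death domain and can assemble either an NF-kB-activating or a cell death complex, whereas TNFRSF1B has no death domain and recruits TRAF adaptors directly. NF-kB then raises the transcription of genes that feed back on the pathway, among them BIRC3 and TRAF1, and cells of the monocyte and macrophage lineage are a main source of TNF, TNFSF13 and TNFSF13B.

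The promoters of BIRC3, TNFSF10 and TNFRSF1B are shown because these genes differed between the replicate numbers and each holds a match to a searched motif. Each line gives, 5′ to 3′ on the gene's strand, the 250 bases that precede the RefSeq start site in GRCh38.p14. They lie at chr11:102317234-102317483 on the plus strand, chr3:172523431-172523680 on the minus strand and chr1:12166741-12166990 on the plus strand. Capitals mark matches, which are the NF-kB motif in BIRC3 and the core of the interferon-stimulated response element in the other promoters.
BIRC3: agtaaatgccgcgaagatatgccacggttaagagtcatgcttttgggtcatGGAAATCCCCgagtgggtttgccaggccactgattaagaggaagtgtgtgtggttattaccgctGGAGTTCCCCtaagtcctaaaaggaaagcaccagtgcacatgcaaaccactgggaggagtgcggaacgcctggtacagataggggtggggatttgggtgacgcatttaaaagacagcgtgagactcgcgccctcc
TNFSF10: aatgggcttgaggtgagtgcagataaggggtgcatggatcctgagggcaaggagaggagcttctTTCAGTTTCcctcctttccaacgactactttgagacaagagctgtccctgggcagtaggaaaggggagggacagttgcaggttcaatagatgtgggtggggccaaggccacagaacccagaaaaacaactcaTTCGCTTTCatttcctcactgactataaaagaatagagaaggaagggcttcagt
TNFRSF1B: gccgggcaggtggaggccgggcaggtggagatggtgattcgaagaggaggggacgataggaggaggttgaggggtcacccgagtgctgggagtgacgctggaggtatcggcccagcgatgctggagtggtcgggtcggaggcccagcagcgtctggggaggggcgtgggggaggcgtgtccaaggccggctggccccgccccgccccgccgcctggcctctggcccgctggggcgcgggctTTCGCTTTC

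The search covered both strands of windows reaching 250 bases before and 50 bases after a start site. All 10 genes had at least 1 window, and together they had 15. BIRC3 held 2 matches to the NF-kB motif, which begin 199 and 135 bases before the start. TNFSF10 held 2 matches to the interferon response element core GAAANNGAA, read on the opposite strand, and TNFRSF1B held 1 directly before the start. NF-kB matches were also found for TNFSF13 and LTA, interferon response element cores for TNFSF13B and gamma-activated sites for LTA, while the windows of TRAF1, TNF, TNFRSF1A and TNFAIP2 held no match to either motif or to the gamma-activated site TTCNNNGAA. Among 34943 windows of all genes, 11.3% held the NF-kB motif, 8.1% the interferon response element core and 7.66% the gamma-activated site. These shares are per window, and a gene with several windows has more places for a match. A match describes the letters only and is not evidence of binding.

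Library totals lay between 61150740 and 78431054 counts. Markers of the myeloid line such as ELANE, SPI1 and CD33 were detected in every library, and MPO did not exceed 1.67 CPM (counts per 1000000 of the library total, scaled by its TMM factor). The libraries numbered 3 stood apart from the other 4 in both groups. Across all genes, 461 of 17224 differed between the replicate numbers (edgeR quasi-likelihood F test, adjusted p below 0.05), and 379 of them (82.2%) were higher in number 3 than in the mean of numbers 1 and 2. With RLE factors the split was 583 of 956 (61%), and with library totals it was 254 of 266 (95.5%). The labels do not say what a replicate number marks. In bulk RNA, a larger share of cells of a type and more RNA per cell cannot be told apart.

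Per kilobase of exon, the 10 genes fell into 4 tiers. TNFRSF1B had the highest mean level over the 6 libraries, 64.5 CPM per kilobase (range 30.8 to 106), followed by TNFRSF1A at 46.2 (38.3 to 66.0), TNFAIP2 at 38.0 (22.1 to 64.8), TNFSF13B at 26.3 (16.5 to 38.7) and TNFSF13 at 22.7 (14.0 to 34.2). The lead of TNFRSF1B comes from the libraries numbered 3, since TNFRSF1A was the higher receptor per kilobase in the other 4. The ranges of neighbouring genes in this upper tier overlapped. TNF stood alone at 4.54 CPM per kilobase (3.46 to 5.33). TRAF1 at 0.828 (0.407 to 1.72), TNFSF10 at 0.695 (0.186 to 1.39) and BIRC3 at 0.207 CPM per kilobase (0.0451 to 0.641) overlapped each other below it. LTA, the gene of lymphotoxin alpha, lies at chr6:31572054-31574324 and had 12 counts in all, 4 in each of B2 replicates 2 and 3 and DMSO replicate 3 and 0 in the rest. A count of 0 allows up to 3 counts, or 0.0386 to 0.0537 CPM by library, a limit that covers counting error only, so no difference in LTA was detectable at this depth.

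**Figure D1:**
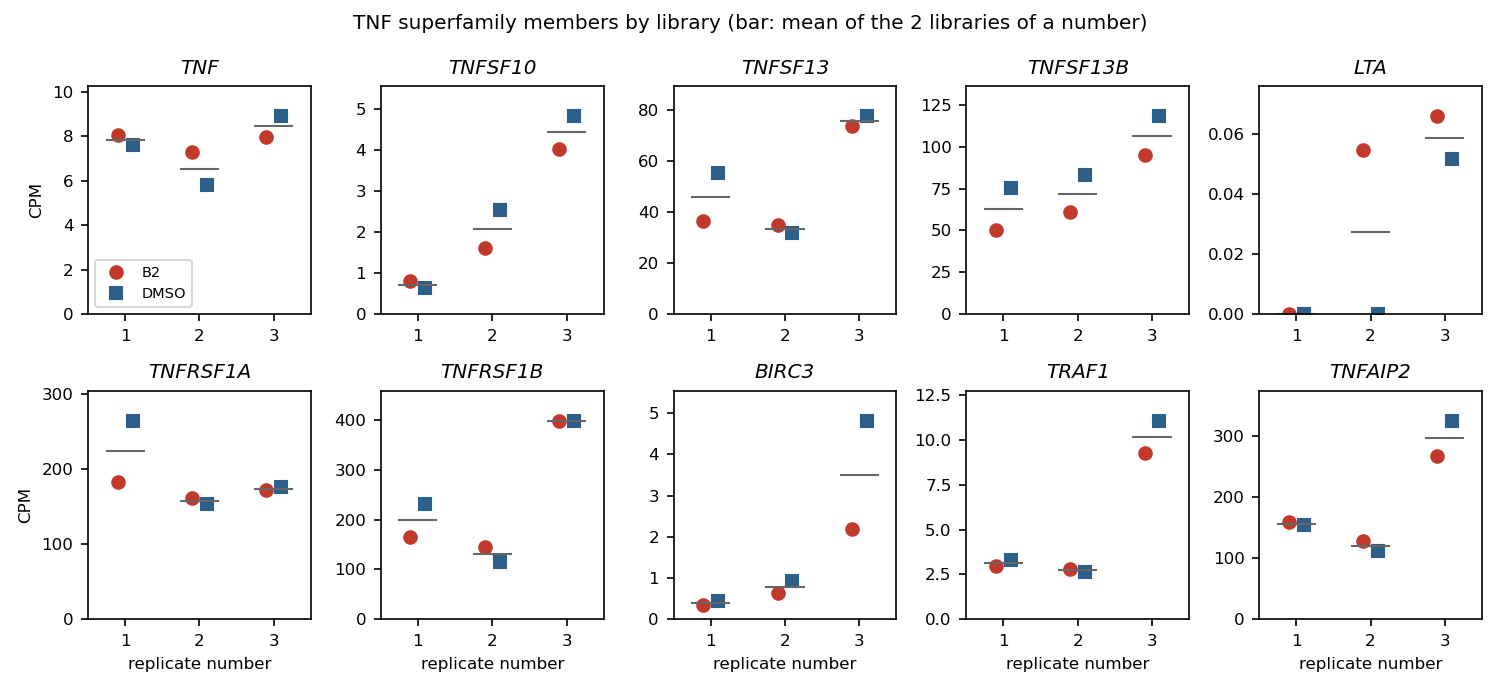
Level of each gene (CPM, linear axis from 0) by replicate number, with B2 libraries as circles, DMSO libraries as squares and a bar at the mean of the 2 libraries of a number. For 7 of the 9 tested genes both libraries numbered 3 lie above the other 4, whereas circles and squares overlap in all 9.

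The first question was whether B2 changed these genes, and for none of them was a difference called. Of 9 tested, 0 passed an adjusted p of 0.05 (edgeR quasi-likelihood test), against 0% of all genes. An unadjusted p below 0.05 was reached by 0 of the 9 and by 85 of all 17224 tested genes. Without any effect a share near 0.05 is expected, so the test was conservative here and 0 of 9 is weak evidence of no change. In no case did the B2 and DMSO libraries separate without overlap, which 3.56% of all genes did. Estimates were below 0 for 8 of 9 genes, with a median log2 difference (B2 minus DMSO) of -0.19, beside -0.08 over all tested genes. That count moved with single libraries. Without DMSO replicate 3 it was 2 of 9 (median 0.42), and without B2 replicate 1 or 2 it was 4 of 9. The other single omissions gave 7 to 9 of 9. Each of these fits leaves a library without its same-numbered partner. With both libraries numbered 3 left out the count was 7 of 9 (median -0.28), and with the replicate block it was 8 of 9. With the replicate number as a block, 0 of the 9 were called, again against 0% of all genes. At an unadjusted p below 0.05 (edgeR) the block gave 0 members and 228 of all 17224 tested genes, again below the expected share. The SE was smaller with the block for all 9, for example 0.27 against 0.30 for TNF and 0.34 against 0.78 for TNFSF10. Every 95% interval still included 0. BIRC3 gave -0.69 (SE 0.39, interval -1.53 to 0.16) and TNFSF13B gave -0.45 (SE 0.24, interval -0.97 to 0.08). DESeq2 called 1 gene and limma-voom 0 genes in the whole table.

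TNF (chr6:31575567-31578336), the founding ligand of the family, ranged from 5.80 to 8.93 CPM across the libraries. It measured 8.05, 7.31 and 7.99 CPM across the B2 libraries, in the order of their numbers 1 to 3, and 7.61, 5.80 and 8.93 CPM across the DMSO libraries in the same order, which is kept for every gene. The DMSO libraries spanned the B2 libraries. The log2 difference was 0.06 (SE 0.30, n = 3 per group, edgeR adjusted p 1.00), with a 95% interval from -0.63 to 0.75.

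TNFSF13B (chr13:108251240-108308484), which encodes the B cell survival factor BAFF, measured 50.4, 60.8 and 94.8 CPM in B2-treated cells and 75.1, 82.9 and 118 CPM in vehicle-treated cells. Within each replicate number the B2 library was the lower one, but B2 replicate 3 lay above DMSO replicates 1 and 2. The log2 difference of -0.42 (SE 0.33, 95% interval -1.17 to 0.32) did not pass the test (edgeR adjusted p 1.00). TNFSF13B and BIRC3 were the members lower with B2 in all 3 same-numbered pairs, a pattern that 9.2% of all genes showed. The opposite order in all 3 pairs occurred in 0 members and in 6.71% of all genes.

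TNFSF13 (chr17:7558292-7561608) encodes APRIL, the close relative of BAFF that shares receptors with it. Its levels were 36.7, 34.9 and 73.8 CPM in B2-treated cells and 55.5, 32 and 77.8 CPM in vehicle-treated cells. The treatments were furthest apart in number 1, and the log2 difference was -0.19 (SE 0.42). TNFSF13 shares exon bases with the readthrough gene TNFSF12-TNFSF13, which had 0 counts in all 6 libraries, so how its reads were assigned in the deposited table is uncertain.

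TNFSF10 (chr3:172505508-172523507), the death ligand TRAIL, was at 0.799, 1.62 and 4.03 CPM in B2-treated cells and at 0.645, 2.55 and 4.84 CPM in vehicle-treated cells. It was lowest in number 1 and highest in number 3 in both groups, and the groups overlapped across the whole range. The log2 difference between treatments was -0.32 (SE 0.78).

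TNFRSF1A (chr12:6328757-6342114), the death domain receptor for TNF, measured 182, 161 and 172 CPM in B2-treated cells and 264, 153 and 176 CPM in vehicle-treated cells. DMSO replicate 1 was the high library, and the other 5 lay close together. That library also had the lowest TMM factor (0.86), which scales its CPM up, and the largest share of mitochondrial counts (10.3%). With library totals in place of TMM factors the TNFRSF1A difference between treatments was -0.10. TNFRSF1B (chr1:12167003-12209228), the second TNF receptor, measured 166, 145 and 398 CPM in B2-treated cells and 233, 116 and 399 CPM in vehicle-treated cells. Within number 3 the treatments were almost equal. The log2 differences between treatments were -0.20 (SE 0.28) for TNFRSF1A and -0.08 (SE 0.53) for TNFRSF1B. The exons of TNFRSF1B share 36 bases with the microRNA gene MIR7846.

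BIRC3 (chr11:102317450-102339403) encodes cIAP2, a ubiquitin ligase of the TNF receptor complex that limits cell death. It measured 0.339, 0.643 and 2.18 CPM in B2-treated cells and 0.430, 0.915 and 4.82 CPM in vehicle-treated cells, from 24 to 374 counts a library. DMSO replicate 3 was the highest library, and B2 replicate 3 exceeded the remaining DMSO libraries. The log2 difference of -0.97 (SE 0.97) was the most negative among the 9, and its 95% interval of -3.19 to 1.25 did not exclude 0. Leaving out both libraries numbered 3 gave -0.46, and leaving out DMSO replicate 3 alone gave 0.64.

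TRAF1 (chr9:120902393-120929173), an adaptor that binds TRAF2 and TNFRSF1B, measured 2.95, 2.81 and 9.24 CPM in B2-treated cells and 3.31, 2.63 and 11.1 CPM in vehicle-treated cells. TNFAIP2 (chr14:103123442-103137439), a TNF-induced gene linked to membrane nanotubes, measured 159, 129 and 268 CPM in B2-treated cells and 154, 111 and 326 CPM in vehicle-treated cells. In both genes the B2 library was the lower one of number 3 and the higher one of number 2. Their log2 differences were -0.18 (SE 0.68) and -0.09 (SE 0.45).

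**Figure D2:**
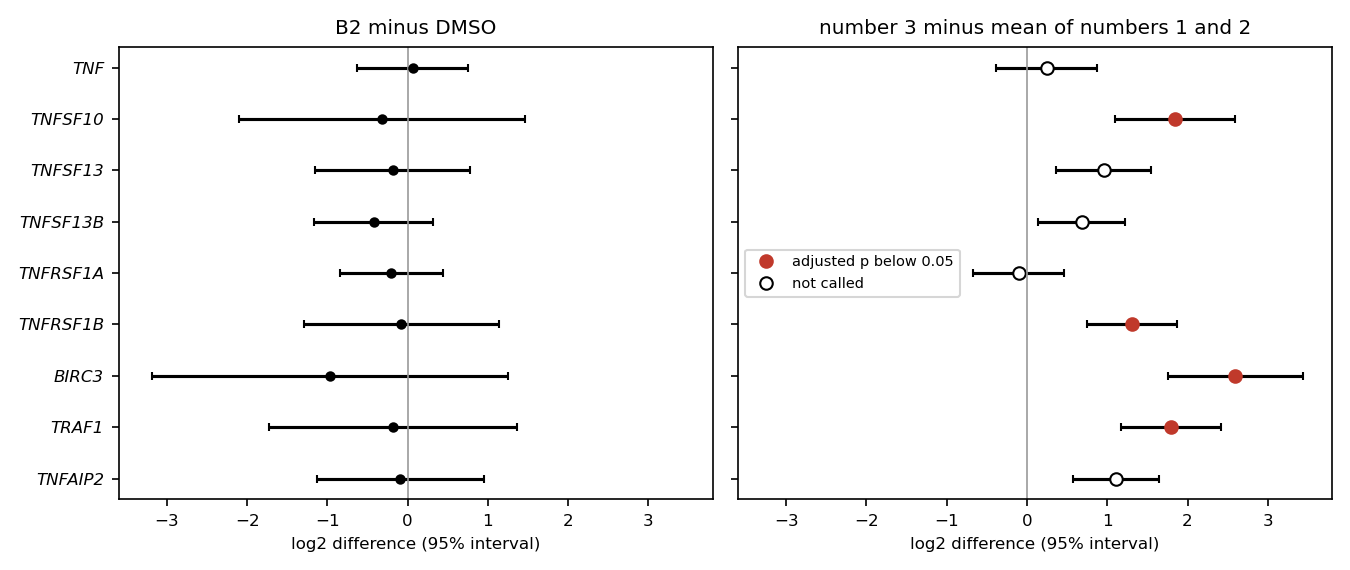
Log2 differences of the 9 tested genes with 95% intervals. The left panel shows B2 minus DMSO from the fit without the replicate block. The right panel shows number 3 minus the mean of numbers 1 and 2, where filled points passed the F test over replicate numbers. On the left every interval includes 0, and on the right the filled points are TNFSF10, TNFRSF1B, BIRC3 and TRAF1, between 1.31 and 2.59.

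The second comparison described the same genes by replicate number, with treatment kept in the model. Adjusted p-values are from the test over all replicate numbers, whereas differences and SEs compare number 3 with the mean of numbers 1 and 2. BIRC3, TNFSF10, TRAF1 and TNFRSF1B differed between the numbers, each being highest in number 3, and the other 5 tested members (TNFAIP2, TNFSF13, TNFSF13B, TNF and TNFRSF1A) did not pass the test. That libraries numbered 3 stand apart was known from earlier results, so the contrast is a description of these libraries rather than independent evidence. On simulated counts the test called more unchanged genes than its threshold implies, so members near it, such as TNFRSF1B, are less certain. The share of members called was 4 of 9, against 2.68% of all genes, and all 4 were called with their highest mean in number 3, against 2.14%. Both libraries numbered 3 lay above the other 4 in 7 of 9 members, compared with 12.3% of all genes, and below them in 0 of 9, compared with 12.1%. The median log2 difference of number 3 from the mean of numbers 1 and 2 was 1.11 over the 9 members and -0.05 over all tested genes.

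Among the mediators, BIRC3 had the largest difference. Number 3 exceeded the mean of the other numbers by 2.59 on the log2 scale (SE 0.39, n = 2 libraries per number, edgeR adjusted p 0.00649), a 6.04-fold higher level. The difference was 2.15 within B2 and 2.88 within DMSO. The call was lost without DMSO replicate 3 (adjusted p 0.233) and without DMSO replicate 1 (0.0518). TRAF1 was 1.80 higher in number 3 (SE 0.29, edgeR adjusted p 0.0115), or 3.47-fold, with values of 1.67 within B2 and 1.90 within DMSO. Its call was lost without B2 replicate 3 (adjusted p 0.103), without DMSO replicate 3 (0.245) and with library totals (0.0566). TNFAIP2 was 1.11 higher (SE 0.24) and missed the threshold (edgeR adjusted p 0.0633). It passed in 6 of 8 other settings that kept all libraries. With edgeR these were RLE factors (adjusted p 0.0442), a stricter filter on low counts (0.0184), counts divided by 4 (0.00419) and no treatment term (0.0256). DESeq2 (adjusted p 0.000922) and limma-voom (0.0172) were the others. All 6 called more of all genes than the 461 of the main fit. The number was 535 with no treatment term and ran from 956 to 2379 in the rest. TNFAIP2 missed again with library totals (edgeR adjusted p 0.113) and with no filter on low counts (0.101). Leaving out 1 library moved the difference between 0.91 and 1.32.

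Of the 4 tested ligands 1 was called, beside 2.68% of all genes, and whether the ligands differ from each other was not tested. TNFSF10 was 1.85 higher in number 3 on the log2 scale (SE 0.34, edgeR adjusted p 0.0167), or 3.6-fold, with 1.80 within B2 and 1.89 within DMSO. Number 2 also lay above number 1 for TNFSF10, by 1.49 (SE 0.43). The call was lost without DMSO replicate 1 (edgeR adjusted p 0.0870) and with library totals (0.0829). TNFSF13 and TNFSF13B did not pass the F test over the numbers (edgeR adjusted p 0.126 and 0.226). For each, both libraries numbered 3 lay above the other 4. Their log2 differences for number 3 were 0.95 (SE 0.27, 95% interval 0.36 to 1.55) and 0.68 (SE 0.25, interval 0.14 to 1.23). These intervals exclude 0 but are not adjusted for the number of genes. TNFSF13 passed in 2 of 8 other settings that kept all libraries, DESeq2 (adjusted p 0.0156) and counts divided by 4 (edgeR adjusted p 0.0190). Those settings called 1686 of 17224 and 2379 of 13948 genes, against 461 of 17224 in the main fit. It missed with, for example, library totals (edgeR adjusted p 0.190) and no filter on low counts (0.177). Leaving out 1 library moved the TNFSF13 difference between 0.80 and 1.18. TNF gave 0.25 (SE 0.29, edgeR adjusted p 0.703), with a 95% interval from -0.38 to 0.87.

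Of the 2 TNF receptors 1 was called, beside 2.68% of all genes. TNFRSF1B was 1.31 higher in number 3 on the log2 scale (SE 0.26, edgeR adjusted p 0.0341), or 2.48-fold, with 1.36 within B2 and 1.28 within DMSO. TNFRSF1A gave -0.10 (SE 0.26, edgeR adjusted p 0.495). The call of TNFRSF1B was lost without B2 replicate 3 (adjusted p 0.419), without DMSO replicate 3 (0.352), without DMSO replicate 2 (0.169) and with no filter on low counts (0.0543).

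Ratios between related genes within a library do not depend on its scaling. They restate the levels above in another form and are a description, not further support. The ratio of TNFRSF1B to TNFRSF1A levels per kilobase was 0.967, 0.956 and 2.46 in B2 replicates 1 to 3 and 0.935, 0.804 and 2.41 in DMSO replicates 1 to 3. TNFRSF1A was thus the more abundant receptor per kilobase in 4 libraries and TNFRSF1B in the pair numbered 3. BIRC2 and TRAF2, chosen as reference genes after their values were seen, encode the paralog of BIRC3 and the main partner of TRAF1. The ratio of BIRC3 to BIRC2 was 0.0343, 0.0409 and 0.119 with B2 and 0.0319, 0.0535 and 0.224 with DMSO. The ratio of TRAF1 to TRAF2 was 0.0540, 0.0572 and 0.180 with B2 and 0.0410, 0.0582 and 0.244 with DMSO. In both ratios the libraries numbered 3 were above the other 4, while BIRC3 and TRAF1 stayed the less abundant gene of each pair throughout. The ratio of TNFSF13 to TNFSF13B was 0.978, 0.772 and 1.05 with B2 and 0.994, 0.518 and 0.883 with DMSO, and here number 3 overlapped number 1. A ratio shows unequal change and does not say which of its genes changed.

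**Figure D3:**
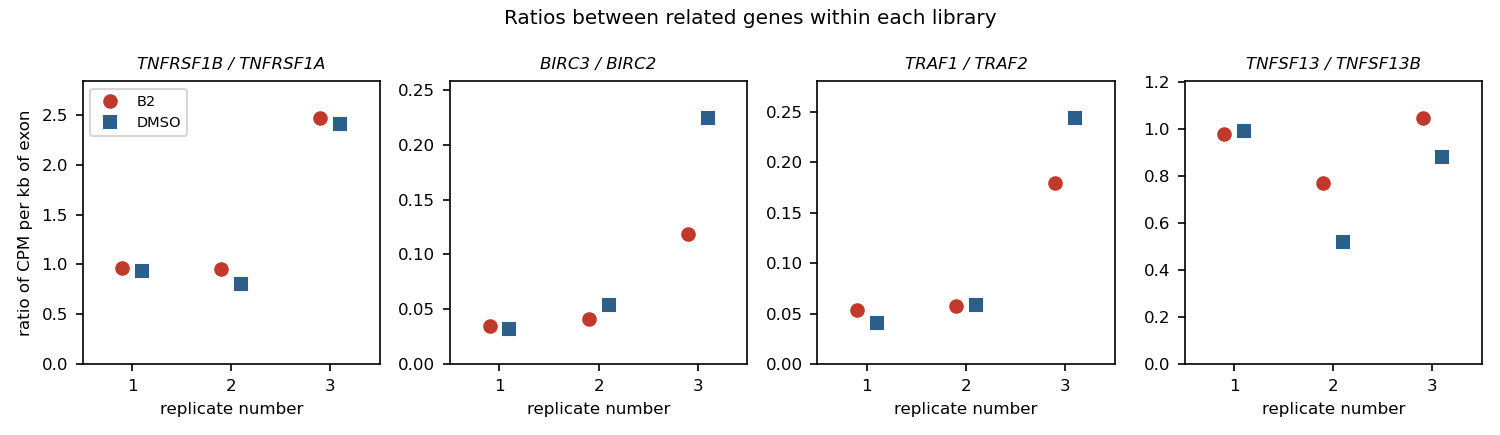
Ratios of levels per kilobase of exon (linear axes from 0) between related genes within each library, by replicate number, with B2 as circles and DMSO as squares. The libraries numbered 3 are above the other 4 for TNFRSF1B over TNFRSF1A (2.46 and 2.41), BIRC3 over BIRC2 and TRAF1 over TRAF2, and overlap them for TNFSF13 over TNFSF13B.

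The wider pathway was described with 4 gene lists, of which the members form part. Among TNF-induced NF-kB target genes, 12 of 28 tested (42.9%) differed between the replicate numbers, all with higher levels in number 3, and 16 were not called. Over all tested genes 2.68% were called, and 2.14% were called and highest in number 3. These 12 include BIRC3 and TRAF1 themselves, and 10 of 25 genes outside the members were called. The list's median log2 difference for number 3 was 1.33. CXCL8, a neutrophil chemokine, measured 3.04, 3.59 and 40.5 CPM in B2-treated cells and 3.01, 5.09 and 55.4 CPM in vehicle-treated cells (log2 difference for number 3 of 3.71, SE 0.28, edgeR adjusted p 4.54e-05). CCL2, a monocyte chemokine, measured 12.0, 12.7 and 144 CPM in B2-treated cells and 9.16, 16.4 and 141 CPM in vehicle-treated cells (3.52, SE 0.27, edgeR adjusted p 5.04e-05). Both chemokine genes were far higher in the libraries numbered 3, whichever the treatment. PLAUR, the urokinase receptor, IER3, an early response gene, and ICAM1, an adhesion molecule, had log2 differences of 2.38, 2.66 and 1.88 in the same direction and were also called.

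Among receptors, the call outside the members was a costimulatory one. Of the TNF receptor superfamily, 2 of 18 tested genes were called, TNFRSF1B and TNFRSF9, with a list median of 0.39 and beside the 2.68% called over all genes. TNFRSF9, the costimulatory receptor 4-1BB, measured 0.366, 0.397 and 3.32 CPM in B2-treated cells and 0.681, 0.335 and 3.32 CPM in vehicle-treated cells (log2 difference for number 3 of 2.93, SE 0.41, edgeR adjusted p 0.00446). TNFRSF10D, a decoy receptor for TNFSF10, ran the other way at 16.4, 14.6 and 3.65 CPM in B2-treated cells and 7.27, 11.6 and 4.93 CPM in vehicle-treated cells, but was not called (-1.47, SE 0.37, edgeR adjusted p 0.106). Both number 3 libraries were the lowest for TNFRSF10D. Of the adaptors, kinases and death signalling genes, TRAF1 and BIRC3 were the 2 called among 35, with a list median of 0.16, and TANK, a TRAF-binding regulator, came next at 1.11 (edgeR adjusted p 0.0947). Of the ligands, TNFSF10 was the 1 called among 9 tested of 18 listed, with a list median of 0.68.

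Against DMSO, B2 gave 0 calls in each of these lists, with median log2 differences of -0.13 for ligands, -0.08 for receptors, -0.13 for adaptors and -0.11 for NF-kB targets, beside -0.08 over all genes. RNF31, the catalytic subunit of the linear ubiquitin ligase that acts at the TNF receptor complex, had the smallest p among the adaptors. It measured 15.9, 9.28 and 14.4 CPM in B2-treated cells and 36.6, 15.7 and 53.7 CPM in vehicle-treated cells. B2 was lower in all 3 pairs, with B2 replicate 1 just above DMSO replicate 2. The log2 difference of -1.42 (SE 0.46, unadjusted edgeR p 0.0147, adjusted p 1.00) did not pass. With the replicate block it was -1.29 (unadjusted edgeR p 0.00121) and was not called either. RNF31 shares exon bases with AL136295.5 and PSME2, so its counts are uncertain.

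**Figure D4:**
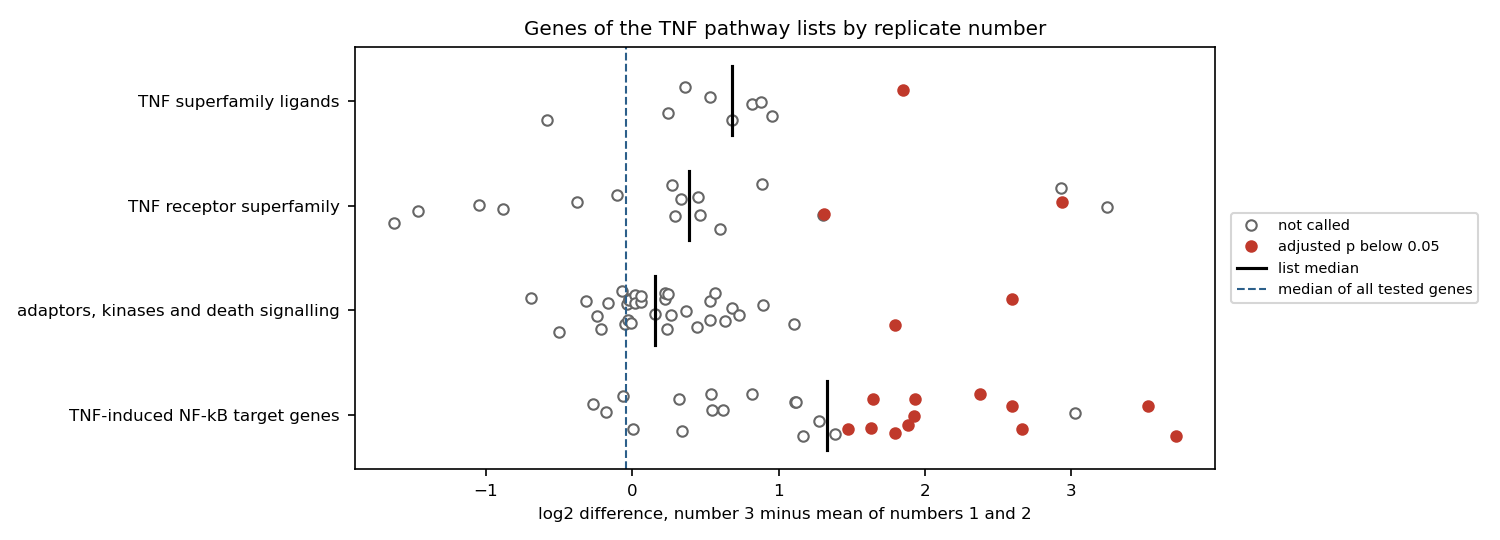
Log2 difference of number 3 from the mean of numbers 1 and 2 for each tested gene of the 4 pathway lists, with filled points for genes past an adjusted p of 0.05, a black bar at each list's median and a dashed line at the median of all tested genes (-0.05). Points are spread vertically for legibility, and the filled points are most numerous among the NF-kB targets (12 of 28).

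Monocyte and macrophage markers differed between the replicate numbers, whereas most other marker sets held no called gene. The summed level of 8 monocyte and macrophage markers was 1783 to 2076 CPM in the libraries numbered 3 and 282 to 449 CPM in the other 4, and ran from 313 to 1783 CPM across B2 and from 282 to 2076 CPM across DMSO. Of the 7 tested markers 6 were called, all higher in number 3, among them CD14, SIGLEC1 and CD163, while MRC1 was at 0 in all libraries. The T cell markers summed to between 3.62 and 4.92 CPM in number 3 and between 0.312 and 0.986 CPM elsewhere, through CD2, with CD3D, CD3E and CD3G at 0 throughout and 1 of 2 tested markers called. Of 3 tested neutrophil markers 1 was called, CEACAM8 at 0.312, 0.548 and 7.30 CPM in B2-treated cells and 0.358, 1.24 and 7.37 CPM in vehicle-treated cells. The B cell, NK cell, fibroblast and myeloid progenitor sets had 0 calls. Epithelial markers summed to between 28.0 and 34.5 CPM in B2-treated cells and between 2.88 and 24.7 CPM in vehicle-treated cells, and 0 of 6 were called by treatment or by number. The part of these markers' cells in the levels of BIRC3, TRAF1, TNFSF10 and TNFRSF1B was not tested.

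Likeness to each member was measured as the Pearson r of log2 CPM over the 6 libraries, among 12861 genes with a mean of at least 1 CPM. The libraries share their depth and the split between number 3 and the rest, so high values are common and are given as a description. BIRC3 was most like TANK (0.998) and TMEM106B (0.997), TRAF1 most like OLIG1 (1.00) and OLFML2B (0.999), and TNFRSF1B most like ENG (0.999) and FTLP3 (0.999). TNFSF10 was most like MIR223HG (0.995) and DDX60L (0.995), TNFSF13 most like BST2 (0.999) and FCER2 (0.998), and TNFAIP2 most like PIM1 and STAC3 (both 0.998). TNF, whose libraries numbered 3 overlapped the rest, was most like GLB1L (0.987) and TNFAIP1 (0.984).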

How the data were processed

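Values are estimated counts that the authors deposited, not normalized, in 1 table of 60612 Ensembl identifiers. Per the submitters' processing notes, reads were aligned with HISAT2 2.0.4. Not given in the sources used here are the counting tool, the build, the annotation and whether strand was used, so antisense and overlapping genes are uncertain. The deposited values were already whole numbers, and rounding changed nothing. The value 4 occurred 6465 times, against 3144 for 3 and 2022 for 5, so small counts are less exact than their size implies.

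Genes were kept by filterByExpr (minimum count 10, minimum total 15). Both comparisons used glmQLFit and glmQLFTest of edgeR 4.0.16 (R 4.3.3) with TMM factors of 0.86 to 1.07. P-values were adjusted by Benjamini-Hochberg over the 17224 tested genes, with calls at 0.05. The first had treatment as the only term. The second tested replicate number with treatment as a covariate. All adjusted p-values are from these fits unless another tool is named. Tests were checked on simulated counts, where the number test called more unchanged genes than its threshold implies. The B2 test was simulated without a difference between replicate numbers, so its behaviour in the presence of such a difference was not checked. PCR reads are not independent molecules.

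Alternatives were RLE factors, library totals, 2 other filters, DESeq2 1.42.0, limma-voom (limma 3.58.1), the replicate block, no treatment term, counts divided by 4 and libraries left out. Same-numbered libraries deviated together from their group means, with correlations across genes of 0.21, 0.402 and 0.496, each above 0.1, and the best match of 6 of 6 libraries was the one sharing its number. The numbers were therefore taken to pair the libraries. The printed B2 differences, SEs and intervals nonetheless come from the fit without this pairing, unless the block is named. This pairing rests on the data, because the labels leave the meaning of a number unstated.

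The members and gene lists were chosen with earlier results of these data known. Genes named by rule are all members, for each list up to 5 other genes with the smallest replicate number p and the 1 with the smallest treatment p, and for each tested member the 2 genes most like it. The text prints a part of these. Cell type markers come from separate lists, of which the text names a part, and BIRC2 and TRAF2 were added after their values were seen. Gene positions and exon lengths come from GENCODE 29 (GRCh38), and promoters from RefSeq (GRCh38.p14).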

Additional observations from a re-analysis of the deposited data

How the results depend on the processing

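With the replicate number as a block, the B2 comparison called 0 genes and 0 members, as without it. The smallest adjusted p over all genes was 0.127 with the block and 0.674 without (edgeR), and the block changed no call. For B2 against DMSO, DESeq2 called 1 gene and leaving out 1 library gave 0 to 1 genes. The log2 difference of TNFRSF1B turned to 0.00014 with library totals, and that of TNFAIP2 to 0.12 with both libraries numbered 3 left out. Leaving out 1 library at a time moved the B2 difference from -2.07 to 0.64 for BIRC3, -0.11 to 0.22 for TNF, -0.46 to 0.48 for TNFAIP2, -0.39 to 0.070 for TNFRSF1A, -0.69 to 0.44 for TNFRSF1B, -1.15 to 0.42 for TNFSF10, -0.63 to 0.15 for TNFSF13 and -0.98 to 0.75 for TRAF1, while TNFSF13B kept its sign (-0.73 to -0.20). By replicate number, 461 genes were called, beside 956 with RLE factors, 266 with library totals, 1346 with the stricter filter, 1686 with DESeq2, 1278 with limma-voom, 2379 with counts divided by 4 and 388 to 4124 with 1 library left out. Of the members 4 were called, beside 2 with library totals, 3 with no filter, 5 with RLE factors, limma-voom or no treatment term, 6 with DESeq2 or counts divided by 4, and 1 to 6 with 1 library left out, and the difference of TNFRSF1A ran from -0.25 to 0.10. The stricter filter removed BIRC3. The cause was not tested in any of these. With 12 counts in all, LTA is limited by depth. Where a library left out leaves 1 of a number, that library is assumed to vary like the rest.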
